A study of Homo sapiens with 16 samples.

Results

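The long noncoding RNAs (lncRNAs) described here are the rows of the authors' count table that carry the biotype lncRNA and were selected on their level: they average at least 10 CPM (each gene's count divided by its library's total, in parts per 1e6) over all 16 libraries. The rule found 230 of 60603 genes, out of 16840 rows of that biotype, of which 9444 had any count. Because the rule reads the mean level over every library, a level above 10 CPM is not a result, and members that are high in 1 group could enter through it: 18 would fall under 10 CPM without their highest group. Of those named below, LINC01091 and RTCA-AS1 entered through the combination of both agents, in either line, and TPT1-AS1 through the combination in U-937. The others named are LINC00426, PRKCQ-AS1, FAM157C and AL157895.1, with the 3 members nearest the limit. A difference in any of these members that involves the group they enter through is given as a description, with no test. MIAT passed through the SKNO-1 groups with Corin, EIF1B-AS1 through the groups with ATRA and LINC01091 through the treated groups together. All are treated alike. So are KCNQ1OT1, FIRRE, HCG11, PROSER2-AS1, FAM157C, C2orf27A and DUXAP8 where the lines are compared, since each passed through a single line. Other members that passed through several groups together were not counted. The 3 members just inside the limit, AC016588.2, DHRS4-AS1 and FAM13A-AS1, averaged 10.12 CPM each, and the 3 rows just outside it were LINC00294 at 9.97, SOS1-IT1 at 9.89 and AC019080.1 at 9.84 CPM. Without these 18, chosen after the data were seen, the treatments changed 22, 89 and 97 members with ATRA, Corin and both in SKNO-1 and 110, 32 and 149 in U-937, against the 24, 98, 109, 122, 36 and 161 given below.

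Total RNA was sequenced from SKNO-1 and U-937, established human acute myeloid leukaemia (AML) lines, each treated for 24 h in 4 ways. The groups were the solvent DMSO, all-trans retinoic acid (ATRA) at 0.1 µM, Corin at 0.1 µM, and ATRA with Corin at 0.1 µM each, with 2 libraries per group and 8 groups in all. SKNO-1 was grown with GM-CSF in its medium, in every group, and U-937 was not, so a difference between the lines cannot be told apart from the medium. The labels do not say whether the 2 libraries of a group came from separate cultures, so the p-values measure the spread between these libraries, which may be technical. ATRA is the natural ligand of the retinoic acid receptors, and Corin is a hybrid inhibitor of the LSD1 demethylase and the histone deacetylases of the CoREST repressor complex. The study's title names the interplay of CoREST, p300 and retinoic acid signalling in AML as its subject.

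A lncRNA is a transcript with no long open reading frame, usually made by RNA polymerase II, spliced and capped like an mRNA. Some act as RNA, such as the nuclear scaffolds MALAT1 and NEAT1, while others are carriers whose introns or exons hold small RNAs: snoRNA host genes release the guides of ribosomal RNA modification, and microRNA host genes are the primary transcripts of microRNAs. Many others start back to back with a protein-coding gene and share its promoter region. In myeloid cells the microRNA-223 gene and the miR-17-92 cluster are well-studied examples, the first active in granulocyte and monocyte maturation and the second in proliferating cells.

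By the annotation of GENCODE release 44 on GRCh38, the build of the authors' files, 226 of the 230 members could be placed by their identifier. Of these, 62 were intergenic, 51 started within 1000 bases of a coding gene's start on the other strand (divergent), 42 lay antisense to a coding gene, 28 held a snoRNA, 23 held a microRNA and 20 overlapped a coding gene on the same strand. Exon sequence was shared with a coding gene by 114 members, 90 of them on the other strand. Whether strand was used when the authors counted the reads is not given in the sources used here, so for these members the reads of the overlapping gene cannot be told apart. In 84 members every estimated count was whole, while in 92 most counts were not whole because reads fitting several genes were divided among them. Reads from a snoRNA or other small RNA inside an exon were possible in 42 members.

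MicroRNAs inside 7 of the hosts described below are printed, so that those with a seed in common can be seen together. Mature microRNAs were not measured in these libraries, and only the level of the host was. In each sequence, given 5′ to 3′ from RefSeq (GRCh38.p14), bases 2 to 8 (the seed, which pairs with target mRNAs) are in capitals.
miR-223-3p: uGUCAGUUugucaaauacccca
The mature form shown from MIR223HG, on chromosome X, is miR-223-3p. The 6 hairpins of MIR17HG on chromosome 13 give 4 seeds among the forms shown.
miR-17-5p: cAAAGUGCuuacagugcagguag
miR-20a-5p: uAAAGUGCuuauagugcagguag
miR-18a-5p: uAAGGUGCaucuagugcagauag
miR-19a-3p: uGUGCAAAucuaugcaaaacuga
miR-19b-3p: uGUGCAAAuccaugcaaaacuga
miR-92a-3p: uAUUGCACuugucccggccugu
The seed AAAGUGC is shared by miR-17-5p and miR-20a-5p, and GUGCAAA by miR-19a-3p and miR-19b-3p. The pair shown from MIR181A1HG on chromosome 1 has 1 seed, and so has the pair shown from MIR222HG on chromosome X.
miR-181a-5p: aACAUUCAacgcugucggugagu
miR-181b-5p: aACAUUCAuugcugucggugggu
miR-221-3p: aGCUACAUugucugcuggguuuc
miR-222-3p: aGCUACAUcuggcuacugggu
The forms shown from LINC-PINT on chromosome 7 and MIR29B2CHG on chromosome 1 have the seed AGCACCA, and both hosts hold a copy of miR-29b-3p.
miR-29a-3p: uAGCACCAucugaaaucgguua
miR-29b-3p: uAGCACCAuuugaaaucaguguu
miR-29c-3p: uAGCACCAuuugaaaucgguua
The 3 forms shown from MIR23AHG on chromosome 19 have different seeds.
miR-23a-3p: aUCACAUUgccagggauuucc
miR-27a-3p: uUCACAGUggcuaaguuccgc
miR-24-3p: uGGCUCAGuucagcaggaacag

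The libraries held 28.4 to 37.8 M estimated counts, and the members took 1.24% to 2.22% of them. MALAT1 alone took 0.267% to 0.88%. RUNX1T1, part of the fusion gene that marks SKNO-1, was at 88.5 to 154 CPM in SKNO-1 and at most 0.0326 in U-937, while HOXA9 and HOXA10 were at 0 in SKNO-1. The myeloid markers PTPRC, SPI1, CD33 and CSF3R were present in both lines, MPO was at 0.106 to 0.468 CPM in U-937, and the epithelial and erythroid markers were at or near 0. The SKNO-1 DMSO libraries stood apart from each other. Over the members, the SD of the log2 difference between these replicates was 0.39, against 0.124 to 0.291 in the other groups, and the difference followed GC content (correlation 0.693 across 211 members, which are not independent replicates). In the same libraries the share of counts on RN7SL1, RN7SL2, RN7SK and SNORD3A was 12.6% and 6.76%. Their part in the results was not tested, so the way the SKNO-1 counts of called members moved without each of these libraries is also given. Such counts are of members alone, and the share over all genes in those fits is not given here.

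**Figure D1:**
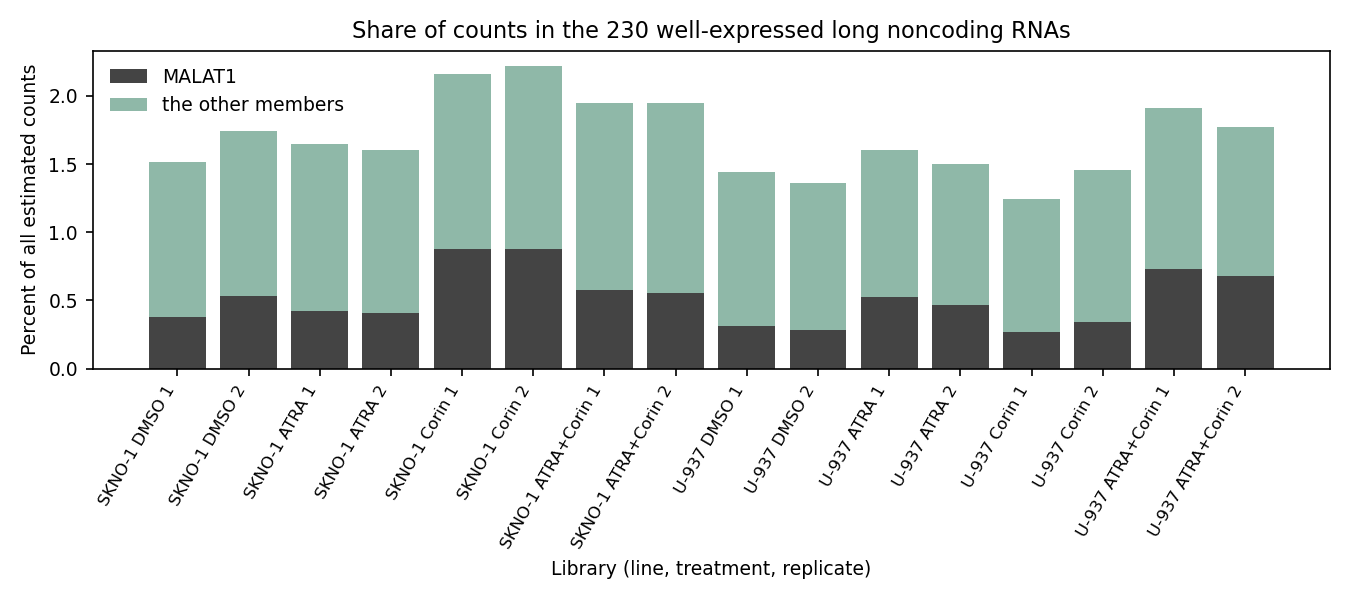
Share of all estimated counts (percent) in MALAT1 and in the other members, 1 bar per library. The Corin libraries of SKNO-1 reach 2.16% and 2.22%, of which MALAT1 is 0.88% in each.

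Compared per length, in TPM (each gene's count divided by its length and then scaled to the library's sum), the highest mean levels over the 16 libraries were those of RMRP at 1793, MALAT1 at 1626, AC006064.5 at 922.5 and AL355075.4 at 606.3 TPM. Of these, 3 rows are short RNAs of other classes or hold one: RMRP is the RNA of the RNase MRP enzyme, AC006064.5 lies over SCARNA10 and AL355075.4 contains RPPH1, the RNA of RNase P. Their estimates are uncertain, since most of their counts were not whole. In SKNO-1 with DMSO, RMRP was at 605 and 131 CPM and AL355075.4 at 672 and 170 CPM, each higher in replicate 1. Spliced hosts of snoRNAs followed: GAS5 at 513.7, SNHG29 at 502.8, ZFAS1 at 244.4, SNHG5 at 194.2, SNHG6 at 172.9 and SNHG16 at 125.5 TPM.

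The first comparison asks which members respond to retinoic acid alone. A gene is called changed when its adjusted p (edgeR's quasi-likelihood test, Benjamini-Hochberg over all genes tested) is under 0.05. Fold changes are log2 with their standard error (SE), and CPM values are scaled by the TMM method. In SKNO-1, ATRA changed 24 of 226 members tested, 14 higher and 10 lower, where 6.76% of all 17479 genes tested were called, 2.96% higher and 3.79% lower. The median log2 fold change was 0.08 over the members and 0.01 over all genes. In U-937, ATRA changed 122 of 220, 58 higher and 64 lower, where 41.8% of all 17717 genes were called (21.7% higher, 20.1% lower), and the medians were 0.01 and 0.02. The SKNO-1 count was higher without either DMSO library and lower without either ATRA library. Whether this is particular to the members was not tested.

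LINC01091, an intergenic transcript of chromosome 4 (chr4:123539026-123962704, plus strand) with no function established here, had the largest rise in both lines. It was at 0.694 and 1.42 CPM with DMSO and 9.21 and 8.97 with ATRA in SKNO-1, and at 0.72 and 0.95 with DMSO and 9.27 and 8.26 with ATRA in U-937. The log2 fold changes were 3.08 in SKNO-1 and 3.39 in U-937, a description, since LINC01091 passed the limit on level only through treated groups.

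EIF1B-AS1 (chr3:40061110-40309698, minus strand) starts 9 bases from EIF1B, which encodes a protein related to the translation start factor eIF1, and runs the other way. Its level went from 3.3 and 3.69 CPM to 18.3 and 18.0 in SKNO-1 and from 3.38 and 3.16 to 14.7 and 14.4 in U-937. The log2 fold changes were 2.38 and 2.15, a description, since EIF1B-AS1 passed the limit on level through the groups with ATRA. The coding partner EIF1B rose by a like amount, with log2 fold changes of 2.24 (SE 0.0933) in SKNO-1 and 2.17 (SE 0.126) in U-937.

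The promoters of these 2 members, which rose together in both lines, are printed from RefSeq (GRCh38.p14), 250 bases before to 50 after the start, 5′ to 3′ on the gene's strand. Matches to AGGTCA, the hexamer that nuclear receptors read, or to TATAAA, on either strand, would be in capitals. The RefSeq start of LINC01091 lies inside the longer gene of GENCODE.
EIF1B-AS1, chr3:40309649-40309948, minus strand: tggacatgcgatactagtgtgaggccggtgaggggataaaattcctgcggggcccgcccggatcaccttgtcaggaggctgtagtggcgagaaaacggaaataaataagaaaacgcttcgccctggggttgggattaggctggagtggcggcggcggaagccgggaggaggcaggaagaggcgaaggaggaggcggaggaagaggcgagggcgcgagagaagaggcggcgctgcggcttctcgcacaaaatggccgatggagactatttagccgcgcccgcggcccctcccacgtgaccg
LINC01091, chr4:123649741-123650040, plus strand: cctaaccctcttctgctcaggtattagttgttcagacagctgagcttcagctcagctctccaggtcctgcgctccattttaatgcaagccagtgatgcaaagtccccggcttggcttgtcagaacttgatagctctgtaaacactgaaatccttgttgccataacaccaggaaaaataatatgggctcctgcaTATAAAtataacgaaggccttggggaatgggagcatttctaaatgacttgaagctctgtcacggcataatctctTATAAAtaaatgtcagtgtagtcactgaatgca
The window of EIF1B-AS1 is 62.7% G or C and holds neither motif. That of LINC01091 is 44% G or C and holds TATAAA at 2 places and no AGGTCA. Of all 35116 RefSeq promoter windows of this length, 13.8% hold AGGTCA and 11.5% TATAAA. Of the 158 windows that matched a member, which belong to 132 members, 9.49% hold AGGTCA and 12.7% TATAAA. Direct repeats of the hexamer with 1, 2 or 5 bases between, on either strand, were also searched, where each copy could be AGGTCA itself, the variant GGGTCA, the variant AGTTCA or the variant GGTTCA. They were in 0.259% of all windows and in 0 of the 158.

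Other members rose with ATRA in both lines. TNRC6C-AS1 was at 10.5 and 9.64 CPM with DMSO and 23.8 and 24.9 with ATRA in SKNO-1, and at 1.53 and 1.36 against 5.74 and 5.07 in U-937. ALOX12-AS1, near the gene of a lipoxygenase, was at 9.11 and 11.1 against 24.4 and 21.1 CPM in SKNO-1, and at 7.7 and 7.53 against 15.4 and 14.1 in U-937. Neither overlapped between treatments in U-937, while in SKNO-1 this was fixed by the choice of members. TNRC6C-AS1 averaged only 1.45 CPM with DMSO and 1.75 with Corin in U-937. Its place among the members rested on other groups, so its rise is a description. The counts of TNRC6C-AS1 were mostly not whole, and the call of ALOX12-AS1 in SKNO-1 (log2 fold change 1.17, SE 0.122, adjusted p = 0.000942) was lost when only the 4 libraries compared were fitted. Of the 216 members tested in both lines, 9 were called higher with ATRA in both, which is 64.3% of the 14 called higher in SKNO-1 and 16.1% of the 56 in U-937. How many of all genes were called alike in both lines was not counted, so this overlap has no general share beside it. It includes LINC01091, EIF1B-AS1 and TNRC6C-AS1, whose rises are descriptions. In 3 members the call was lower in both lines, namely LINC00884, MIR181A1HG and LINC-PINT. Opposite calls were made for 7: OLMALINC, GABPB1-AS1, TMCC1-AS1 and GAS5 were higher in SKNO-1 and lower in U-937, and AC025569.1, AC020916.1 and PRKRA-AS1 the reverse. In each of these 7 members the call of at least 1 line was lost when a single library was left out.

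OLMALINC, an intergenic RNA of chromosome 10, was at 7.58 and 7.5 CPM with DMSO and 19.9 and 18.8 with ATRA in SKNO-1, against 16.7 and 15.3 with DMSO and 12.6 and 12.7 with ATRA in U-937. The ATRA response was lower in U-937 by a log2 difference of -1.66 (SE 0.154, adjusted p = 3.12e-07). The fall in U-937 itself (-0.35, SE 0.12, adjusted p = 0.0229) was lost without replicate 1 of DMSO or either ATRA library (highest adjusted p 0.155). In SKNO-1 the falls of members that carry a symbol were small: MIR181A1HG at -0.89 (SE 0.157), LINC-PINT at -0.75 (SE 0.172), LINC00884 at -0.51 (SE 0.103), MIAT at -0.50 (SE 0.108) and PRKRA-AS1 at -0.45 (SE 0.0892). Each of these 5 calls was lost when only the 4 libraries compared were fitted and without either ATRA library, with adjusted p-values of up to 0.346.

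Other rises with ATRA in U-937 came from a pair of neighbours and a divergent RNA. HEIH, first described as highly expressed in liver cancer, and LINC00847 lie head to head on chromosome 5 (chr5:180826871-180831621, minus strand, and chr5:180830326-180839742, plus strand) and share 1296 bases of gene sequence on opposite strands, so without strand their reads there cannot be told apart. HEIH was at 12.7 and 12.5 CPM with DMSO and 52.4 and 48.7 with ATRA, and LINC00847 at 14.1 and 12.2 against 40.2 and 33.4. The log2 fold changes were 2.00 (SE 0.116, adjusted p = 1.51e-12) and 1.48 (SE 0.12, adjusted p = 6.05e-10). BAIAP2-DT, divergent from the gene of an actin-regulating adaptor, was at 18.9 and 19.6 against 65.4 and 66.3 CPM, and its partner BAIAP2 also rose, by 2.46 (SE 0.19) on the log2 scale.

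In SKNO-1 none of these 3 members was called with any of the treatments. HEIH stayed between 9.08 and 13.6 CPM in all 8 SKNO-1 libraries, LINC00847 between 10.6 and 13.8 and BAIAP2-DT between 62.4 and 85.9. The difference between the lines' ATRA responses was 1.70 (SE 0.19, adjusted p = 2.83e-06) for HEIH and 1.61 (SE 0.142, adjusted p = 1.61e-07) for BAIAP2-DT.

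The largest fall with ATRA in U-937 was that of CCDC26, a myeloid lncRNA of chromosome 8. It went from 23.4 and 29.4 CPM to 1.82 and 1.91, a log2 fold change of -3.82 (SE 0.162, adjusted p = 4.5e-15). In SKNO-1 it was at 51.8 and 59.1 against 47.7 and 43.6 CPM, which was not called, and the responses differed by -3.50 (SE 0.196, adjusted p = 5.77e-10). PVT1, a neighbour of MYC on the same chromosome, fell from 43.5 and 37.8 to 18.2 and 15.3 CPM in U-937 (log2 fold change -1.28, SE 0.199).

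**Figure D2:**
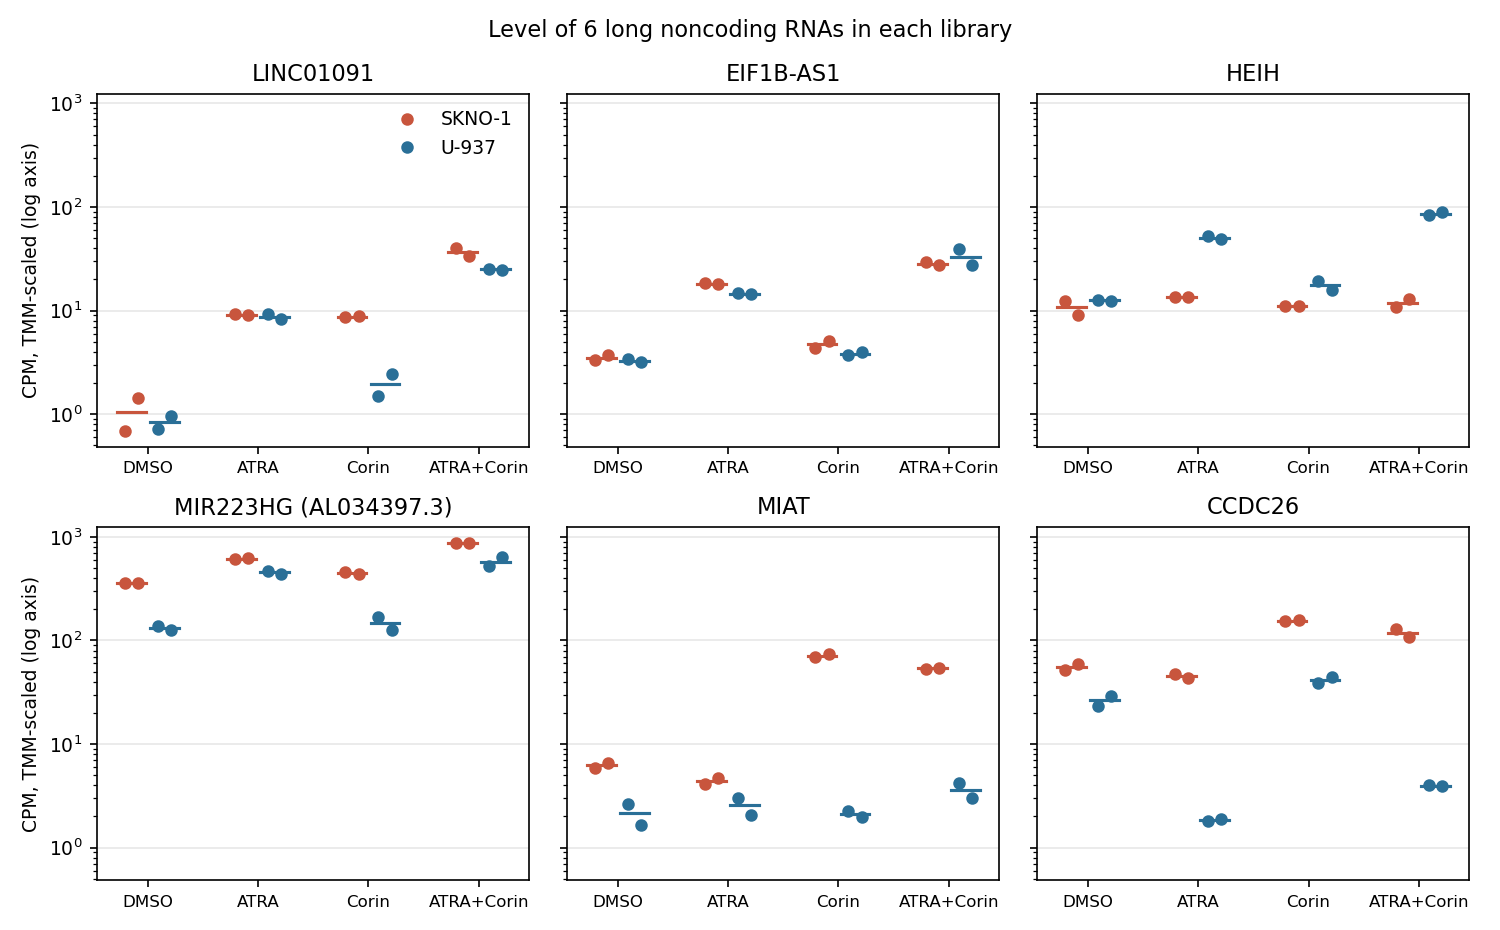
TMM-scaled CPM (log axis) of 6 members in each library by treatment, with 2 points per group, a bar at their mean, SKNO-1 in red and U-937 in blue. LINC01091 and EIF1B-AS1 are higher with ATRA in both lines, HEIH in U-937, and MIAT is at 68.6 and 73.3 CPM with Corin in SKNO-1.

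The second comparison asks which members respond to inhibition of CoREST alone. In SKNO-1, Corin changed 98 of 226 members tested, 60 higher and 38 lower, where 37.9% of all genes tested were called, 20.5% higher and 17.3% lower. The median log2 fold change was 0.13 over the members and 0.00 over all genes. In U-937 it changed 36 of 220, 11 higher and 25 lower, where 12.9% of all genes were called (8.55% higher, 4.4% lower), with medians of -0.09 and 0.00. Without either Corin library the SKNO-1 count was lower, and without either DMSO library it was higher. Without either DMSO library the U-937 count was lower.

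MIAT, a nuclear RNA known from heart and retina studies, had the largest rise in SKNO-1. It was at 5.9 and 6.61 CPM with DMSO and 68.6 and 73.3 with Corin, a log2 fold change of 3.50. In U-937 it stayed between 1.66 and 3.03 CPM with DMSO, ATRA or Corin, and the Corin responses differed by -3.53. Only the SKNO-1 groups with Corin, alone or with ATRA, took MIAT over the limit on level, so these differences are a description. Small RNA genes lie over 746 bases of its exons, and its counts were not whole in any library.

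LINC01091 was higher with Corin too, at 8.63 and 8.87 CPM in SKNO-1 (log2 fold change 3.03). In U-937 it was at 1.49 and 2.45 CPM (1.22), which was not called without replicate 1 of DMSO or replicate 2 of Corin. Both values are descriptions, since LINC01091 passed the limit on level only through treated groups. CCDC26, which ATRA lowered in U-937, was higher with Corin in both lines: 155 and 156 CPM in SKNO-1 (1.49, SE 0.0991) and 38.5 and 44.8 CPM in U-937 (0.66, SE 0.125). LINC00649, which starts 280 bases from the ATP synthase gene ATP5PO, was higher in both as well, at 12.5 and 13.8 CPM against 9.23 and 10.0 in SKNO-1 and 22.4 and 26.7 against 16.7 and 14.5 in U-937. Its call in SKNO-1 (adjusted p = 0.013) was lost without replicate 2 of Corin. LINC00426 was the last of the 4 members called higher in both lines, but it entered through the Corin libraries of U-937, and its call there was lost without replicate 2 of DMSO.

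Falls with Corin in SKNO-1 were led by a pair of neighbours on chromosome 20. MIR646HG (chr20:60087661-60653784, plus strand) went from 10.9 and 14.1 CPM to 3.59 and 3.64, and C20orf197 (chr20:60055853-60072956, plus strand) from 22.4 and 30.2 to 9.26 and 10.5. The log2 fold changes were -1.79 (SE 0.158, adjusted p = 0.000122) and -1.41 (SE 0.157, adjusted p = 0.000378). In U-937 MIR646HG was at 37.1 and 44.5 with DMSO and 33.2 and 48.1 with Corin, and the responses of the lines differed by 1.79 (SE 0.275, adjusted p = 0.000377). CARD8-AS1 and SNHG26 fell by 0.76 and 0.71 on the log2 scale in SKNO-1, and these 4 calls held under every alternative. PRKCQ-AS1 stood at -0.86, a description, since it entered through the DMSO libraries of SKNO-1.

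Corin lowered 12 members in both lines, 35.3% of the 34 in SKNO-1 and 50% of the 24 in U-937. Opposite calls were made for 8, higher in SKNO-1 and lower in U-937, and for 0 the reverse. These 8 are 14% of the 57 higher in SKNO-1 and 33.3% of the 24 lower in U-937. They are LINC01268, MIR600HG, AC008957.1, LINC00926, SNHG4, ZFAS1, SNHG29 and SNHG5. The overlap over all genes was not counted here either. The 12 included SNHG26, SNHG6, OIP5-AS1, MCM3AP-AS1, CYTOR and MIR4435-2HG. Each of these had a call in at least 1 line that was lost without a single library. CYTOR and MIR4435-2HG are near-identical copies on chromosome 2 whose counts were never whole, so how their reads were divided is uncertain. CYTOR fell from 32.8 and 32.9 to 24.3 and 27.1 CPM in SKNO-1 and from 40.4 and 40.7 to 22.8 and 27.5 in U-937. MIR4435-2HG fell from 21.6 and 21.5 to 15.9 and 16 CPM in SKNO-1 and from 71.7 and 74.6 to 49.1 and 52.0 in U-937. The calls of both in SKNO-1 were lost without replicate 1 of Corin, and that of MIR4435-2HG also without replicate 2. In U-937, SNHG22 rose by 0.86 (SE 0.186) and MIR222HG by 0.63 (SE 0.114), neither called in SKNO-1, and MCM3AP-AS1 fell by 0.70 (SE 0.15). The SNHG22 call was lost without replicate 2 of DMSO or replicate 1 of Corin, and the U-937 call of MCM3AP-AS1 with library totals in place of TMM. LINC01268, among the 8 with opposite calls, went from 6.77 and 8.9 to 19.7 and 20.1 CPM in SKNO-1. In U-937 it went from 35.3 and 33.1 to 25.1 and 24.7, a difference between the lines of -1.80 (SE 0.175, adjusted p = 1.01e-06).

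The third comparison gives both agents together. In SKNO-1 the combination changed 109 of 226 members, 68 higher and 41 lower, where 46.7% of all genes were called (24.7% higher, 22% lower). Fewer members were called without replicate 2 of the combination, and more without either DMSO library. In U-937 it changed 161 of 220, 79 higher and 82 lower, where 65.3% of all genes were called, 33.1% higher and 32.2% lower. Median log2 fold changes were 0.12 over the members and 0.05 over all genes in SKNO-1, and 0.06 and 0.03 in U-937. Of the 216 members tested in both lines, 39 were higher in both and 27 lower in both, and 20 were called in opposite directions. The 39 are 58.2% of those higher in SKNO-1 and 50% of those higher in U-937, and the 27 are 73% and 33.8% of those lower. No overlap over all genes was counted beside them, so whether it is particular to the members was not tested.

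LINC01091 reached 39.9 and 33.6 CPM in SKNO-1, a log2 fold change of 5.10, and 25.4 and 24.6 CPM in U-937, at 4.90. These values are a description, since without the combination libraries of SKNO-1 its mean is 7.75 CPM, and without those of U-937 it is 9.57. EIF1B-AS1 reached 29.3 and 27.4 in SKNO-1 and 38.9 and 27.4 in U-937, at 3.02 and 3.34, also a description. Its partner EIF1B rose by 1.30 (SE 0.0919) and 2.01 (SE 0.125). MIAT was at 53.4 and 54.2 CPM in SKNO-1 and at 4.2 and 3.02 in U-937, and the combined responses differed by -2.31, again a description.

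In U-937, HEIH reached 83.8 and 88.5 CPM (2.77, SE 0.118), LINC00847 65.8 and 72.7 (2.39, SE 0.121) and SNHG22, a host of SCARNA17, 36.4 and 30.9 against 5.79 and 4.07 (2.77, SE 0.18). The response of HEIH was higher in U-937 by 2.66 (SE 0.192, adjusted p = 2.04e-09). AC079466.1, an intergenic row of chromosome 19 named after its values were seen, went from 48.5 and 52 CPM with DMSO to 95.9 and 142 with ATRA, 93.9 and 119 with Corin and 648 and 696 with both in U-937 (3.74, SE 0.198, adjusted p = 6.91e-08), and was at 0 in all SKNO-1 libraries. Larger falls than those of any member with a symbol were seen in AL161891.1, from 12.5 and 11.7 to 0.947 and 0.618 CPM (-3.93, SE 0.225), and CU633967.1, from 15.7 and 16.9 to 1.42 and 1.92 (-3.29, SE 0.191), also named after their values were seen. Among members with a symbol, the 3 largest falls were those of CCDC26, HELLPAR and ENTPD1-AS1. HELLPAR, annotated as 1 exon on chromosome 12 and with counts that were mostly not whole, fell from 46.5 and 56.6 to 6.86 and 4.88 CPM (-3.12, SE 0.212). ENTPD1-AS1, antisense to the ectonucleotidase gene ENTPD1, fell from 70.4 and 79.6 to 11.5 and 11.7 (-2.69, SE 0.111). CCDC26 was at 3.99 and 3.92 CPM in U-937 (-2.73, SE 0.148) and at 128 and 109 in SKNO-1 (1.10, SE 0.0986). The combined responses of CCDC26 differed by -3.79 (SE 0.183, adjusted p = 1.18e-11).

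**Figure D3:**
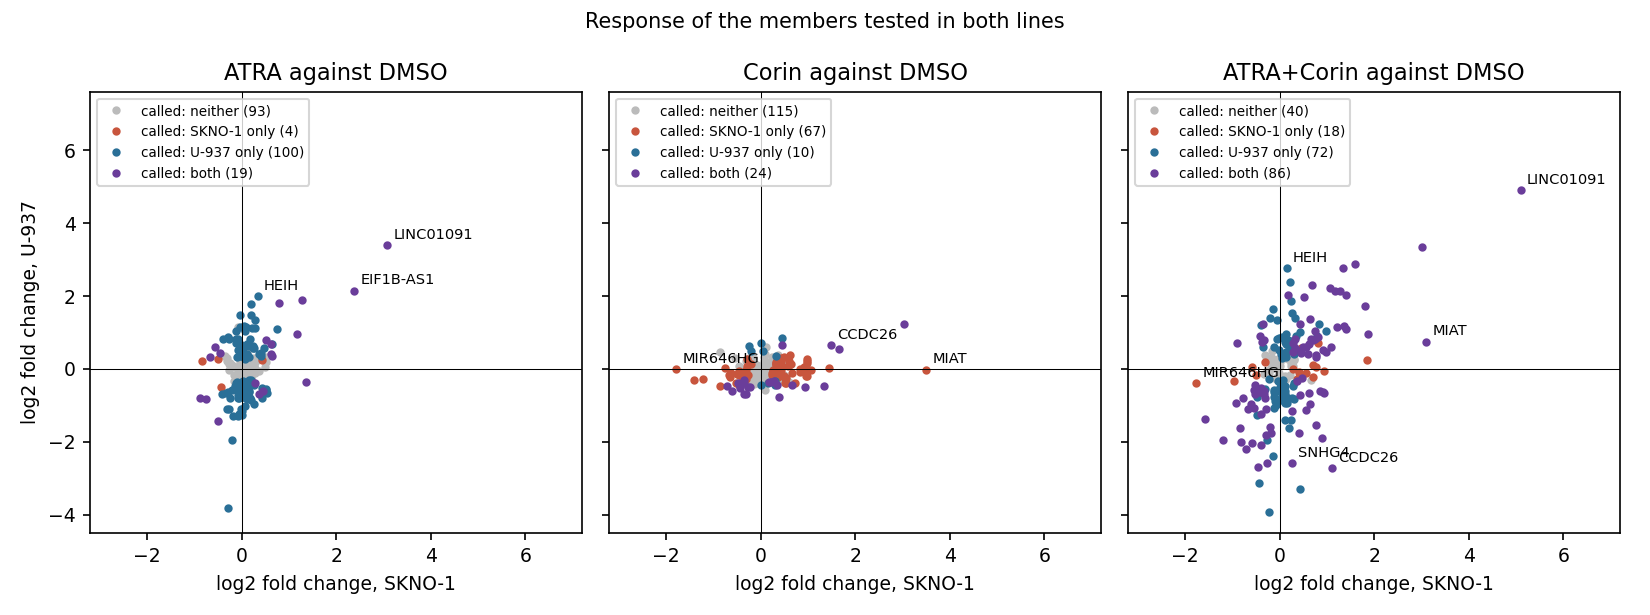
log2 fold change against DMSO in SKNO-1 (x axis) and U-937 (y axis) for the 216 members tested in both lines, 1 panel per treatment, coloured by the line in which the call was made. LINC01091 lies at 5.10 and 4.90 with both agents, while CCDC26 lies at 1.10 and -2.73.

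Whether the agents together gave more or less than the sum of their separate log2 effects was tested within each line. In SKNO-1, 1 of 226 members departed from the sum, where 0.463% of all genes did with every library of the line kept. It is AL157895.1, named after its values were seen, which was at 47.2 and 53.9 CPM with DMSO, 8.88 and 9.75 with ATRA, 26.6 and 25.1 with Corin and 14.6 and 16.2 with both (departure 1.69). It entered through the DMSO libraries of SKNO-1, without which its mean is 7.29 CPM, so this is a description. The count was higher without either DMSO library. It was lower without replicate 1 of ATRA, either Corin library or replicate 2 of the combination. In U-937, 59 of 220 departed, 31 above the sum and 28 below it, where 23.4% of all genes did, 8.09% above and 15.3% below.

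Among members with a symbol, those farthest above the sum in U-937 were CCDC18-AS1 (1.32, SE 0.195), RTCA-AS1 (1.29) and TPT1-AS1 (1.23), all divergent from coding genes. The values of RTCA-AS1 and TPT1-AS1 are descriptions, since both entered through the combination, and that of TPT1-AS1 was not called with library totals in place of TMM. AC079466.1 was at 1.41 (SE 0.254), a call lost without replicate 2 of the combination. RTCA-AS1 was at 6.45 and 4.44 CPM with DMSO, 7.91 and 9.71 with ATRA, 6.44 and 5.71 with Corin and 24.2 and 23.8 with both. The combination libraries were the highest, while RTCA, which starts 34 bases away, was not called with both agents (-0.08, SE 0.115). Farthest below the sum among members with a symbol were HELLPAR (-1.72, SE 0.279), SNHG1 (-1.37, SE 0.152) and MIR17HG (-1.27, SE 0.137). Without a symbol, AL161891.1 was at -3.24 (SE 0.287), CU633967.1 at -2.75 (SE 0.247) and AC091057.1 at -1.49 (SE 0.173). SNHG1 was at 148 and 132 CPM with DMSO, 109 and 119 with ATRA, 133 and 128 with Corin, and 36.6 and 45.6 with both.

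Of the hosts of snoRNAs, more were called lower than higher in U-937 with each treatment. The list of 27 host genes held 20 members. In U-937, ATRA lowered 12 and raised 1, Corin lowered 7 and raised 0, and both agents lowered 17 and raised 1, with list medians of -0.35, -0.23 and -0.65. Over all genes 20.1%, 4.4% and 32.2% were called lower in these comparisons, and 21.7%, 8.55% and 33.1% higher. Of the 28 members that hold a snoRNA by the annotation, which include SNHG22, the calls in U-937 were 3 higher and 12 lower with ATRA, 1 and 8 with Corin and 6 and 18 with both. Over the alternatives tried, 10 to 13, 1 to 8 and 14 to 17 hosts were called lower. In SKNO-1 the calls were 1 higher and 0 lower with ATRA, 7 and 6 with Corin and 6 and 7 with both, and over the alternatives 0 to 9 were called higher and 0 to 6 lower with ATRA. Over all genes in SKNO-1, 2.96% were higher and 3.79% lower with ATRA, 20.5% and 17.3% with Corin, and 24.7% and 22% with both. The ATRA response of 11 of the 20 was lower in U-937 than in SKNO-1, and of 0 higher, where 8.81% of all genes were lower and 10.6% higher.

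SNHG4 was at 68.0 and 75.0 CPM with DMSO, 20.7 and 16.3 with ATRA and 12.4 and 11.5 with both in U-937, at log2 fold changes of -1.95 (SE 0.117) and -2.58 (SE 0.122). In SKNO-1 it was at 113 and 119 with DMSO and 134 and 142 with both, and the combined responses differed by -2.79 (SE 0.149, adjusted p = 4.14e-11). It shares exon sequence with the coding gene MATR3 on the same strand, so its counts, never whole, are model estimates.

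SNHG17 went from 172 and 154 CPM to 31.0 and 23.4 with both agents in U-937, SNHG3 from 366 and 333 to 72.9 and 60.6, and DANCR from 21.3 and 21.3 to 4.73 and 5.7. SNHG3 and DANCR, named from the list, did not overlap between the groups. GAS5, named for its rise in growth-arrested cells, went opposite ways in the lines: from 298 and 287 to 170 and 200 CPM with both agents in U-937 (-0.66, SE 0.105) and from 434 and 413 to 637 and 659 in SKNO-1 (0.61, SE 0.053). The difference was -1.23 (SE 0.128, adjusted p = 2.56e-07). Of the list, ZFAS1 was called higher with both agents in U-937, at 160 and 193 CPM with both agents against 108 and 109 (0.70, SE 0.107), and SNHG12 and SNHG29 were not called there.

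The proteins that bind snoRNAs were read from the same fits. Of 15 such genes, among them FBL, NOP56 and DKC1, ATRA lowered 13 in U-937 and 0 in SKNO-1, and both agents lowered 14 in U-937 and 9 in SKNO-1. Over all genes 20.1% and 3.79% were called lower with ATRA in these lines, and 32.2% and 22% with both. Their medians with both agents were -1.82 in U-937 and -0.26 in SKNO-1. Whether the hosts and these genes changed through 1 process was not tested.

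**Figure D4:**
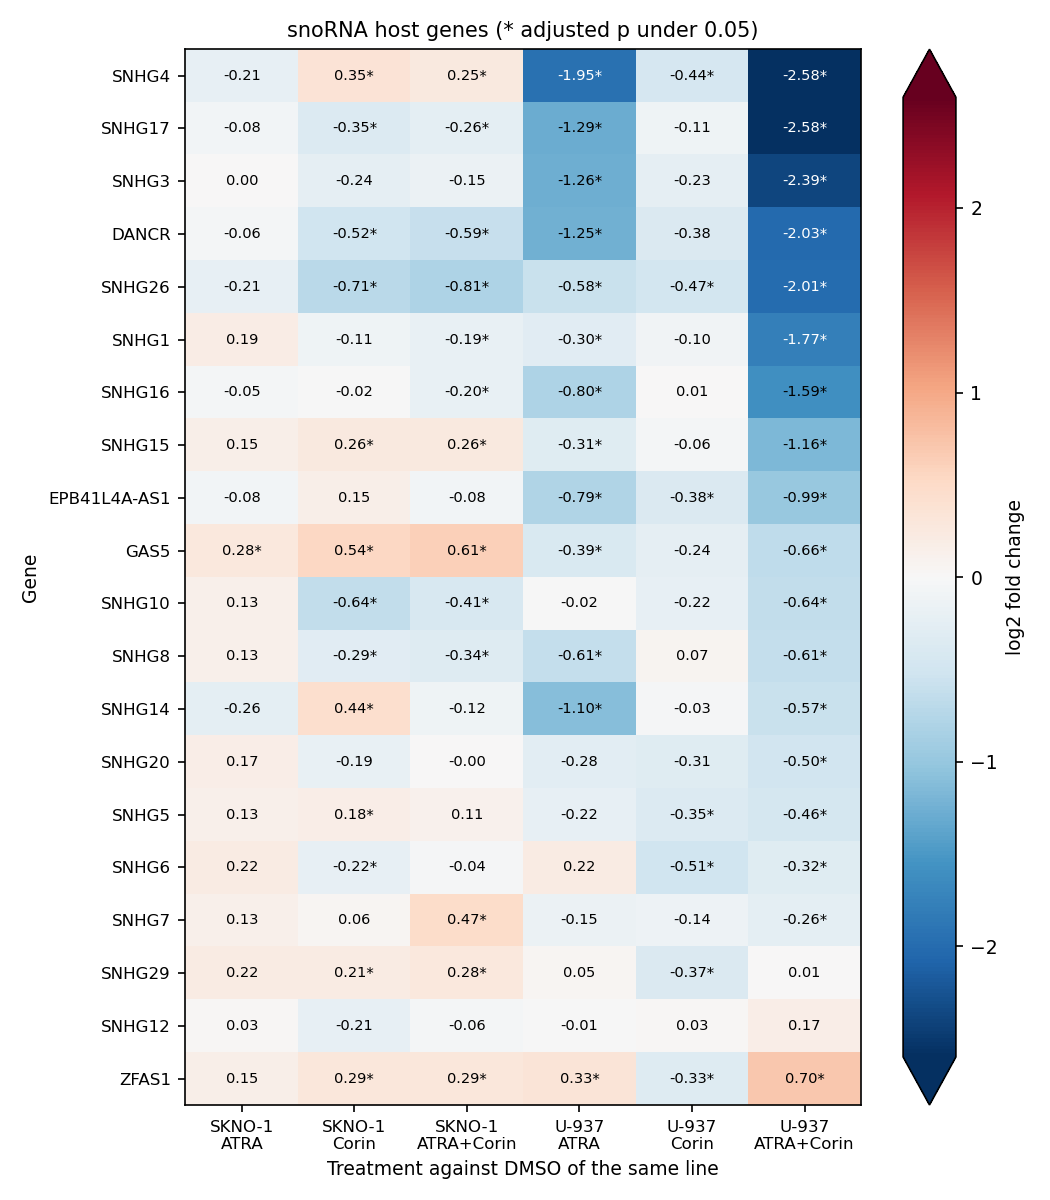
log2 fold change against DMSO of the 20 snoRNA host members (rows) for each treatment and line (columns), with an asterisk for an adjusted p under 0.05. With both agents in U-937 17 are lower and 1, ZFAS1, is higher, and SNHG4 stands at -2.58.

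Among microRNA hosts, 15 of the 28 listed were members, and with ATRA in U-937 4 were called higher and 7 lower, where 21.7% and 20.1% of all genes were. MIR223HG, the row AL034397.3 of the table, rose with ATRA in both lines. It was at 358 and 357 CPM with DMSO and 611 and 621 with ATRA in SKNO-1, and at 137 and 125 against 465 and 443 in U-937. No ATRA library was as low as a DMSO library of its line, and the log2 fold changes were 0.78 (SE 0.0494, adjusted p = 7.39e-05) and 1.80 (SE 0.132, adjusted p = 1.7e-09). With both agents it reached 870 and 872 in SKNO-1 and 520 and 635 in U-937.

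MIR17HG, the precursor of the 6 hairpins shown above, fell in U-937. It was at 168 and 183 CPM with DMSO, 103 and 104 with ATRA, 162 and 153 with Corin and 36.6 and 40.4 with both. In SKNO-1 it was at 45.9 and 62.7 with DMSO and 32.2 and 33.6 with both. The combined fold changes were -2.19 (SE 0.101) and -0.72 (SE 0.131), with a difference between the lines of -1.42 (SE 0.166, adjusted p = 1.13e-06).

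The remaining hosts varied by line. MIR155HG fell in U-937, from 14.7 and 16.3 to 9.29 and 9.74 CPM with ATRA and 5.59 and 7.35 with both, and was not called in SKNO-1. MIR222HG was higher in U-937 with each treatment, at 14.7 and 15.2 with DMSO and 27.3 and 27.7 with both. MIR181A1HG, at 34.2 and 49.1 CPM with DMSO and 22.6 and 19.9 with both in SKNO-1, was called lower there (-0.97, SE 0.157), while in U-937 it was at 1.94 to 4.28 CPM. MIR23AHG, the row AC020916.1, was called lower with ATRA in SKNO-1 (-0.68, SE 0.14) and higher with both agents in U-937 (0.96, SE 0.12). The first of those calls was lost without either ATRA library (highest adjusted p 0.174). MIR600HG was higher with Corin in SKNO-1 (0.93, SE 0.0981) and lower in U-937 (-0.49, SE 0.145), the latter call lost without replicate 1 of DMSO or of Corin, and with both agents the responses differed by -2.74 (SE 0.183, adjusted p = 8.02e-10). Of 16 genes of microRNA processing, such as DROSHA and DICER1, both agents raised 5 and lowered 8 in U-937, where 33.1% of all genes were higher and 32.2% lower, and raised 2 and lowered 6 in SKNO-1, where 24.7% and 22% were. MIR29B2CHG was at 47 and 51.5 CPM with DMSO and 34.9 and 37.7 with ATRA in SKNO-1 (-0.44, SE 0.0969), and at 31.3 and 27.4 with DMSO and 22 and 15.6 with both in U-937 (-0.64, SE 0.218), calls that were each lost under several alternatives (highest adjusted p 0.219 and 0.126).

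**Figure D5:**
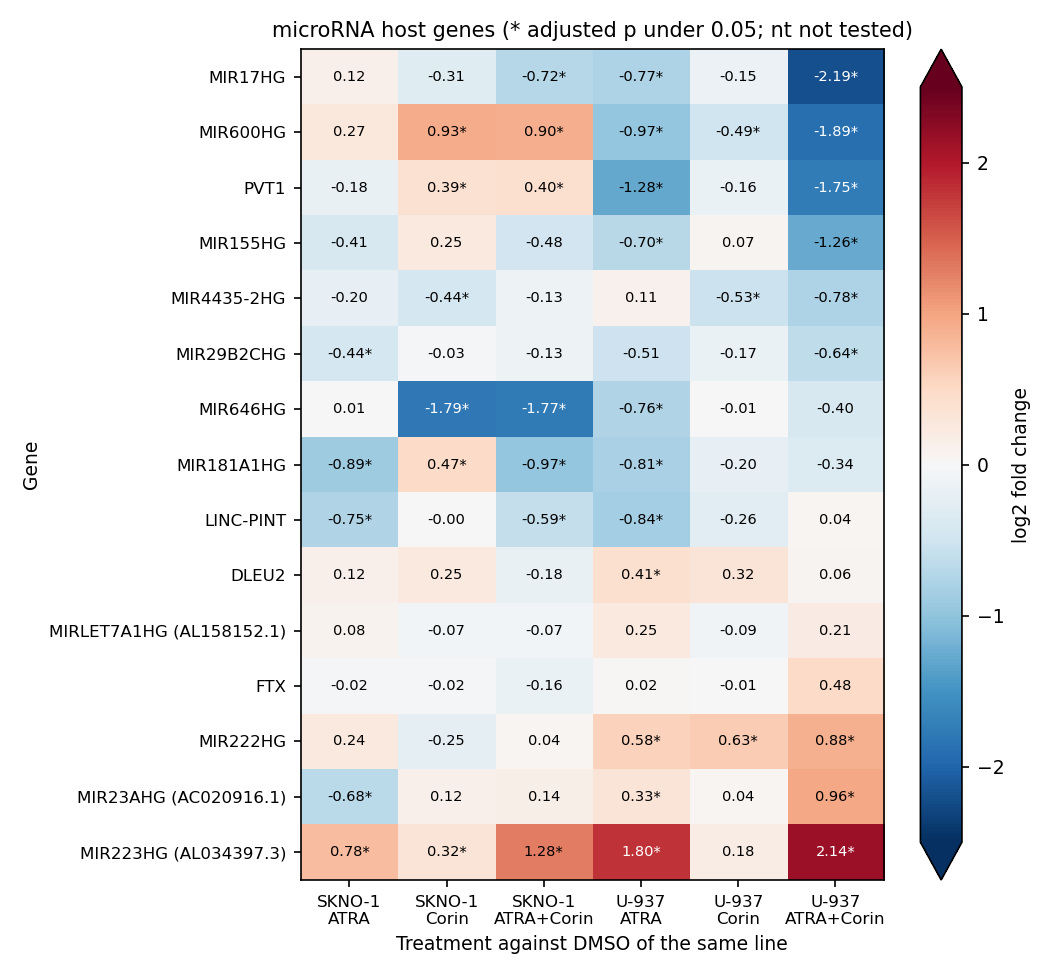
log2 fold change against DMSO of the 15 microRNA host members (rows) for each treatment and line (columns), with an asterisk for an adjusted p under 0.05. MIR223HG is higher with ATRA in both lines (0.78 and 1.80), and MIR17HG is at -2.19 with both agents in U-937.

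The list of nuclear retained and other structural RNAs had 13 of its 16 genes among the members. Of the 12 tested in SKNO-1, Corin raised 5 and lowered 0, and of the 12 tested in U-937 both agents raised 4 and lowered 3. Over all genes 20.5% were higher and 17.3% lower in the first comparison and 33.1% and 32.2% in the second. MALAT1, a scaffold of nuclear speckles, was at 3911 and 5199 CPM with DMSO in SKNO-1 and 8665 and 8469 with Corin (0.91, SE 0.118, adjusted p = 0.000768). With both agents in SKNO-1 it was at 5933 and 5467 (0.32, SE 0.117, adjusted p = 0.0529), which was not called. In U-937 the rise came with ATRA instead, from 2961 and 2744 to 5269 and 4790 CPM (0.82, SE 0.134), and with both agents, at 7462 and 7474 (1.39, SE 0.135). With Corin alone in U-937 it was at 2666 and 3188 CPM. The ATRA responses differed between the lines by 0.97 (SE 0.18, adjusted p = 0.000634) and the Corin responses by -0.87 (SE 0.18, adjusted p = 0.00294).

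NEAT1, the core of paraspeckles, varied widely between the U-937 replicates, at 175 and 541 CPM with Corin and 746 and 415 with both in U-937. None of its differences in U-937 was called, and its rise with both agents in SKNO-1 (0.82, SE 0.198) was lost without either DMSO library or without replicate 1 of the combination. NORAD, a cytoplasmic sponge of PUMILIO proteins, rose with both agents in U-937, from 590 and 653 to 934 and 1054 CPM (0.68, SE 0.111). Of the 12 genes of paraspeckle proteins, both agents lowered 10 in U-937 and 4 in SKNO-1, where 32.2% and 22% of all genes were lower. KCNQ1OT1, the antisense RNA of the imprinted KCNQ1 locus, was at 156 and 151 CPM with DMSO and 42.2 and 34.4 with both in U-937 (-2.0, SE 0.281).

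The remaining lists held few members. Of 14 HOX cluster RNAs, 0 were members. Of 30 myeloid and immune RNAs 3 were, namely CCDC26, MIR4435-2HG and CYTOR, and both agents lowered all 3 in U-937, where 32.2% of all genes were lower. Of 16 RNAs linked to stress and p53, 10 were members. ATRA lowered 5 and raised 0 of the 9 tested in U-937 and lowered 1 and raised 1 in SKNO-1. Over all genes ATRA lowered 20.1% and raised 21.7% in U-937 and lowered 3.79% and raised 2.96% in SKNO-1. GAS5, DANCR and EPB41L4A-AS1 among them are also counted as snoRNA hosts.

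Divergent members were compared with the coding gene that starts beside them, in the 55 pairs tested in SKNO-1 and the 56 in U-937. Some of these members are also hosts of small RNAs and are counted in that class above. The correlation of the log2 fold changes across pairs, which are not independent replicates and come from the same libraries, was 0.47 with ATRA, 0.19 with Corin and 0.27 with both in SKNO-1, and 0.42, 0.01 and 0.37 in U-937. With both agents in U-937, 41 divergent members were called, where 65.3% of all genes were (33.1% higher, 32.2% lower). In 20 pairs the partner was called in the same direction, in 10 the opposite one, and in 11 the partner was not called. Pairs of other neighbouring genes were not counted, so whether these numbers are particular to the members was not tested. EIF1B-AS1, BAIAP2-DT and SNHG22 moved with their partners with ATRA in U-937. LINC00649 did not: with both agents it was at 74.8 and 69.2 CPM against 16.7 and 14.5 in U-937 (2.21, adjusted p = 5.82e-14), while ATP5PO fell by 0.43 (SE 0.117).

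By genomic class, the calls with both agents in U-937, where 33.1% of all genes were higher and 32.2% lower, were 21 higher and 15 lower of 51 divergent members, 15 and 12 of 38 antisense, 22 and 21 of 56 intergenic, 9 and 6 of 20 sense overlapping, 4 and 10 of 23 microRNA hosts and 6 and 18 of 28 snoRNA hosts. Among the members with no exon base shared with a coding gene, 39 rose and 38 fell of 104 tested. Among those whose counts were all whole, 29 rose and 29 fell of 80.

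The lines were also compared in the solvent. U-937 differed from SKNO-1 in 171 of 230 members, 60 higher and 111 lower in U-937, where 64.8% of all 19872 genes differed, 31.7% higher and 33.1% lower. The median log2 difference was -0.35 over the members and -0.01 over all genes. With library totals in place of TMM the split was 70 higher and 91 lower, and the median of all genes was 0.15. Since the level over all libraries chose the members, 163 averaged at least 10 CPM in both lines, 40 in SKNO-1 alone and 27 in U-937 alone. Under 1 CPM were 4 members in SKNO-1 and 12 in U-937.

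Some members were near absent from a line. KCNQ1OT1, FIRRE, HCG11 and PROSER2-AS1 passed the limit on level through the other line, so their differences between the lines are descriptions. KCNQ1OT1 was at 0.21 and 0.225 CPM in SKNO-1 and 151 and 146 in U-937 with DMSO, on the scale of both lines (log2 difference 9.39). FIRRE, an X-linked RNA that organises nuclear contacts, was at 58.6 and 63.1 CPM in SKNO-1 and had 0 counts in the U-937 DMSO libraries, which makes it at least 1292-fold higher in SKNO-1 where 3 counts over both U-937 libraries are taken as the floor. HCG11 had 2720 counts in SKNO-1 and 1 in U-937, a ratio of 2514 (exact 95% interval 451 to 99336). PROSER2-AS1 had 2086 counts and 1, a ratio of 1928 (346 to 76190). These intervals cover counting error only. FAM157C was at 23.0 and 19.8 CPM in U-937 against 0.75 and 1.3 in SKNO-1, and C2orf27A at 23.5 and 22.4 against 1.59 and 1.01. Both passed the limit on level through U-937, so these differences too are descriptions. Both come from families of near-identical copies, so their estimates are uncertain.

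Responses that differed between the lines were counted in the fit of all libraries. The ATRA response differed in 72 of 230 members, 31 higher and 41 lower in U-937, where 19.4% of all genes differed, 10.6% higher and 8.81% lower. The Corin response differed in 50, 8 higher and 42 lower, where 12.8% of all genes did (5.28% higher, 7.49% lower). This count was lower without replicate 1 of Corin in SKNO-1 and higher without replicate 2 of DMSO in SKNO-1. The combined response differed in 113, 44 higher and 69 lower, where 40.6% did, 17.9% higher and 22.7% lower. For the combination the median over all genes was -0.11, and -0.26 with library totals in place of TMM, where 32 members were higher and 82 lower. With library totals the ATRA split was 23 higher and 46 lower.

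The authors' deposited tables of their own comparisons were set beside these calls. At an adjusted p under 0.05, the authors' deposited table called 13, 46 and 69 members with ATRA, Corin and both in SKNO-1. For U-937 the authors' deposited table called 123, 31 and 148. Each member called both there and here had the same direction, namely 13, 46 and 69 calls in SKNO-1 and 113, 29 and 145 in U-937.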

How the data were processed

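Total RNA libraries (TruSeq Stranded Total RNA kit, per the labels' protocols) came from SKNO-1 and U-937, 2 per group. Trimmomatic, STAR, RSEM and DESeq2 are named in the submitters' processing notes, with hg38. The authors deposited estimated counts, made with RSEM per the submitters' processing notes, in 1 table and per library beside TPM. Strand use, annotation release and settings are not given in the sources used here. The authors' deposited comparison tables hold log2 fold changes and adjusted p-values from DESeq2. The table and the per-library counts were identical.

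Counts were rounded, filtered (filterByExpr), scaled by TMM and tested with edgeR 4.0.16 (R 4.3.3; quasi-likelihood, robust; Benjamini-Hochberg over all genes, 0.05), with 1 fit per line and 1 fit of all 16 libraries for contrasts between lines. Only the ATRA comparison of the U-937 fit was tried on simulated counts, with independent noise and no shift linked to GC content. The SKNO-1 fit and the fit of both lines were not tried in this way. The totals of 28.4 to 37.8 M counts per library limit precision for members near 1 CPM. Intervals and floors cover counting error only.

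The members and gene lists were chosen with earlier results of these data known. Named are, per treatment and line, the 5 largest called rises and falls among symbols averaging 5 CPM or more whose libraries do not overlap DMSO, the 3 largest per direction in additivity and between lines, the 10 highest by TPM, list members and members called in both lines. Alternatives were DESeq2 1.42.0, no filter, library totals, a replicate block, removal of a GC trend, only the groups compared, and each library left out. Sequences are from RefSeq (GRCh38.p14), matched by symbol or microRNA name. For 132 members a promoter was found, and 22 hosts gave 71 mature microRNAs.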

Additional observations from a re-analysis of the deposited data

Results flagged for a closer look

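Each result here is a response that differed between the lines by the interaction term of the fit over all libraries (edgeR, adjusted p under 0.05), given as the log2 response in U-937 minus that in SKNO-1. The lines also differ in medium, so line and medium cannot be told apart.

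The ATRA response differed in 72 members. Among those with a symbol, it was higher in U-937 for HEIH (1.70), BAIAP2-DT (1.61) and SNHG22 (1.53), and lower for CCDC26 (-3.50), SNHG4 (-1.69) and OLMALINC (-1.66). The SNHG22 difference was lost without 1 or other of 4 libraries, at an adjusted p of up to 0.0847.

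The Corin response differed in 50 members. It was higher in U-937 for MIR646HG (1.79), C20orf197 (1.12) and MIR222HG (0.87), and lower for MIAT (-3.53), LINC01091 (-1.81) and LINC01268 (-1.80). The MIAT value is a description, since MIAT passed the limit on level through the SKNO-1 groups with Corin. The LINC01091 value is also a description, since it passed the limit only through treated groups. It was lost with only the groups compared and without replicate 2 of DMSO in U-937.

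The response to both agents differed in 113 members. It was higher in U-937 for HEIH (2.66), LINC00847 (2.23) and DUXAP8 (1.84), and lower for CCDC26 (-3.79), SNHG4 (-2.79) and MIR600HG (-2.74). DUXAP8 was at 0.0939 to 0.378 CPM in U-937 against 44.7 to 53.2 in SKNO-1, and its symbol stands on 2 rows of the table. It passed the limit on level through SKNO-1, so its value is a description. Its difference was lost without replicate 1 of DMSO in U-937.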

How the results depend on the processing

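Of 445 calls of named members, 312 held under every alternative run for them, 133 were lost under at least 1 and 0 reversed. For ATRA in SKNO-1 the count of 24 members was 37 without the low-count filter, 52 with the GC trend removed and 7 with only the groups compared. With only the groups compared it was also 44 for Corin in SKNO-1, 68 for both agents in SKNO-1 and 29 for the difference between the lines' Corin responses. Departures from additivity in SKNO-1 numbered 17 without the filter, 11 with the GC trend removed and 4 by DESeq2, and 34 had an unadjusted p under 0.05. Without the 18 members that pass the limit on mean CPM only with their highest group, an alternative chosen after seeing the data, the SKNO-1 additivity count was 0 and the other 11 counts stayed within 1.5 times. Leaving out 1 library gave 8 to 88 members for ATRA, 49 to 142 for Corin, 70 to 149 for both agents and 0 to 81 for additivity in SKNO-1, 16 to 40 for Corin in U-937, and 33 to 75 for the difference in Corin responses. With the GC trend removed, both agents in SKNO-1 gave 100 higher and 35 lower. With library totals, additivity in U-937 gave 23 above and 31 below. Replicate numbers did not pair the libraries: deviations of same-numbered libraries correlated at -0.4867 to 0.4152 over the pairs of groups, and the labels name no shared batch. With the replicate block the counts were 19, 88 and 99 for ATRA, Corin and both agents in SKNO-1 and 119, 28 and 157 in U-937. The causes of these differences were not tested. All these counts are of members alone, and the share over all genes under each alternative is not given here.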
